A study of Mus musculus with 8 samples.

Results

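The genes described here are 8 of the 32285 listed in each count table: the corticosteroid receptor genes Nr3c1 and Nr3c2, the steroid-converting enzyme gene Hsd11b1, the thyroid hormone receptor genes Thra and Thrb, the estrogen receptor gene Esr1, and the estrogen-related receptor genes Esrrb and Esrrg. They are the rows of these symbols; the rule that picks them uses no measured value, but the list was drawn up with earlier results of these data known. Nuclei isolated from adult mouse hearts were sequenced one by one in droplets (10x Genomics), and each captured RNA molecule carries a unique molecular identifier (UMI). The hearts were labelled non-transgenic (nTg, wild type) or transgenic (Tg) with constitutive expression of CCNA2, the cyclin A2 protein, and female or male; strain, age in weeks and the promoter of the transgene are not given in the sources used here. Of the 8 labelled libraries, 5 are used here: first the nTg one, from female 1, and then from the Tg group females 1 and 2 followed by males 1 and 2, which is also the order of the values below. Nothing in the labels says that libraries came from separate animals, so the p-values measure the spread between these libraries, which may be technical.

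Nuclear receptors are transcription factors that bind small lipophilic ligands and act at short DNA elements. Nr3c1 encodes the glucocorticoid receptor and Nr3c2 the mineralocorticoid receptor, which binds both aldosterone and glucocorticoids. The enzyme of Hsd11b1 regenerates active glucocorticoid inside the cell, with reducing power from the enzyme of H6pd, and the enzyme of Hsd11b2 inactivates it in aldosterone target tissues such as the kidney. Thyroid hormone sets heart rate, contractility and the choice of myosin in heart muscle through the receptors of Thra and Thrb. Estrogen-related receptors bind no known natural estrogen and, with the coactivators PGC-1 alpha and beta, drive genes of fat oxidation and mitochondrial respiration.

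The genes differ in size, which matters for nuclear RNA, where unspliced transcripts are common. On GRCm38 (GENCODE annotation), Esrrg spans 606 kb of chromosome 1, of which 1.02% is exon, and Esr1 394 kb of chromosome 10. Thrb spans 378 kb of chromosome 14, Nr3c2 346 kb of chromosome 8, and Esrrb 161 kb of chromosome 12. Nr3c1 spans 109 kb. Hsd11b1, with 42.4 kb on chromosome 1, and Thra, with 28.4 kb on chromosome 11, are the short members. Opposite-strand genes overlap 5 of the 8: Gm10649 overlaps Nr3c2, 4930570N18Rik and Lamb3 overlap Hsd11b1, Nr1d1 overlaps Thra, Gm48321 overlaps Thrb, and Gm36388 and 9330162B11Rik overlap Esrrg. Whether the counting used strand is not given in the sources used here, so reads of these pairs cannot be told apart with certainty.

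RefSeq start sites (GRCm38.p6) were matched for 6 of the 8 genes. Thra and Nr3c1 are named only. The 250 bases before a start site are shown for the enzyme gene Hsd11b1 and for the estrogen-related receptor genes Esrrb and Esrrg. For Esrrg, only the first of 4 start sites is shown. Capitals mark matches to the motifs named below.
Hsd11b1, chr1:193242361-193242610, minus strand: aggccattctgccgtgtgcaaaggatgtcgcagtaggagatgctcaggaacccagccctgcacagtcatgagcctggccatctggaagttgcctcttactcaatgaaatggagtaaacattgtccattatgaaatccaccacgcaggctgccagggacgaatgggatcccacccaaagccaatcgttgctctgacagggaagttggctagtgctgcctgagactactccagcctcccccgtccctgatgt
Esrrb, first start site, chr12:86360867-86361116, plus strand: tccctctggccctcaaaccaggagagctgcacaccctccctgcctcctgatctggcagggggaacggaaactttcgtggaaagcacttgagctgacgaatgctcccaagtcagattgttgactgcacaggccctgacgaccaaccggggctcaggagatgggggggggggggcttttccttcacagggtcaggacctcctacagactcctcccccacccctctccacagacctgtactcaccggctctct
Esrrb, second start site, chr12:86421394-86421643, plus strand: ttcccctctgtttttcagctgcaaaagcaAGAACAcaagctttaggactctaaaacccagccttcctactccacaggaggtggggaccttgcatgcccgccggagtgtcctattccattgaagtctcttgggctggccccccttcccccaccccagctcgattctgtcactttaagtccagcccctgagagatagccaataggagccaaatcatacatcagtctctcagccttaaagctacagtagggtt
Esrrg, first start site, chr1:187608756-187609005, plus strand: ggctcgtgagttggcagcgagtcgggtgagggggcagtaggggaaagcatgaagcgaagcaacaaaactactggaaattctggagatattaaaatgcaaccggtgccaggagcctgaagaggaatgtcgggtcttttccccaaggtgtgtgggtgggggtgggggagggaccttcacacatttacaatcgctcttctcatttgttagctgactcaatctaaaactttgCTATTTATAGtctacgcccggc
The motifs were searched on both strands over 250 bases before to 50 after the start. The estrogen-related receptor element TCAAGGTCA, held by 0.423% of all 32851 RefSeq promoters of this length, was in none of these 4 windows, nor were the core AAGGTCA (4.72% of promoters) or the C/EBP motif TTGCNNAA (10.8%). The full glucocorticoid element (AGAACA and TGTTCT with 3 bases between them, 0.00913%), the estrogen element (AGGTCA and TGACCT with 3 between them, 0.0213%) and the thyroid element (AGGTCA repeated with 4 between, 0.0152%) were absent from them too. The second Esrrb start site held the single glucocorticoid site AGAACA, as 19.0% of promoters did. The first Esrrg start site held the MEF2-type motif (CTA and TAG with 4 bases between them), found in 3.69% of promoters, overlapping a TATAAA on the other strand (13.6%). Hsd11b1 and the first Esrrb start site held none of the motifs. Of the Esrrg start sites not shown, the second held a C/EBP match and the others none of the motifs. A match is a description of the letters only.

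The libraries held between 25045167 and 38593706 UMIs, and 5772 to 8843 nuclei each were kept after filters. Clusters were named from marker genes, and 8 cell types had at least 50 nuclei in every library and were tested: cardiomyocytes, fibroblasts, endothelial, endocardial and lymphatic endothelial cells, pericytes, smooth muscle cells and macrophages. Clusters named fibroblast, cardiomyocyte and endothelial had 3 to 8 of their 8 listed markers raised and the other 5 tested types had 8 of 8, so the labelled heart tissue carried its defining cells; T and NK cells, Schwann cells and mesothelial cells were too few to test. Ccna2, the transgene's gene, went against 2 labels: in cardiomyocytes it stood at 444 CPM (UMIs scaled to the same total in every sum) in the library labelled nTg female 1 and at 0.523 CPM in the library labelled Tg female 1, against 814, 233 and 143 CPM in the others. Xist and Y-linked genes matched the sex label in 5 of 5 libraries. Pairs of libraries shared 14 to 28 cell barcodes, at most 0.341% of the smaller one.

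The receptor genes divided the heart between its cell types (plot of levels by cell type). Among the 8 tested types, Esrrg, Esrrb and Thrb were highest in cardiomyocytes, Hsd11b1 and Thra in fibroblasts, Nr3c2 in lymphatic endothelial cells, and Nr3c1 and Esr1 in macrophages. Levels are CPM of UMIs summed per library and cell type, so they are shares of that type's RNA, and they do not compare one gene with another. Pairs of types were tested with edgeR's quasi-likelihood test with TMM scaling and the library as a block. Of 224 gene-by-pair tests 152 passed an adjusted p of 0.05; over all genes 51.0% of tests passed. Cardiomyocytes stood furthest apart, with 75.2% of all genes called against fibroblasts, 75.8% against endothelial cells, 73.9% against macrophages, 68.0% against pericytes, 67.5% against endocardial cells, 63.8% against lymphatic cells and 54.1% against smooth muscle cells. Fibroblasts differed in 60.7% of genes from endothelial cells, 60.1% from macrophages, 45.2% from pericytes, 43.5% from endocardial cells, 42.4% from lymphatic cells and 39.7% from smooth muscle cells. Macrophages differed in 55.4% from endothelial cells, 55.3% from pericytes, 51.4% from smooth muscle cells, 50.9% from endocardial cells and 47.6% from lymphatic cells. Pericytes differed in 51.1% from endothelial, 43.3% from endocardial, 42.6% from lymphatic and 32.1% from smooth muscle cells. Among the 3 endothelial types the share was 37.7% for endothelial against endocardial, 35.2% for endothelial against lymphatic and 28.2% for endocardial against lymphatic cells, and smooth muscle cells differed from these types in 46.7%, 39.5% and 39.9% of genes. The calls per gene, out of 28 pairs each, were 27 for Thrb, 22 for Nr3c2, 20 each for Nr3c1, Thra and Esr1, 19 for Esrrg, 15 for Hsd11b1 and 9 for Esrrb. TMM scaling raised cardiomyocytes relative to the other types by a median of 0.42 to 0.68 on the log2 scale over all genes. Among the 152 calls, 1 changed its sign without TMM (cardiomyocytes against endocardial cells for Nr3c1, below).

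**Figure D1:**
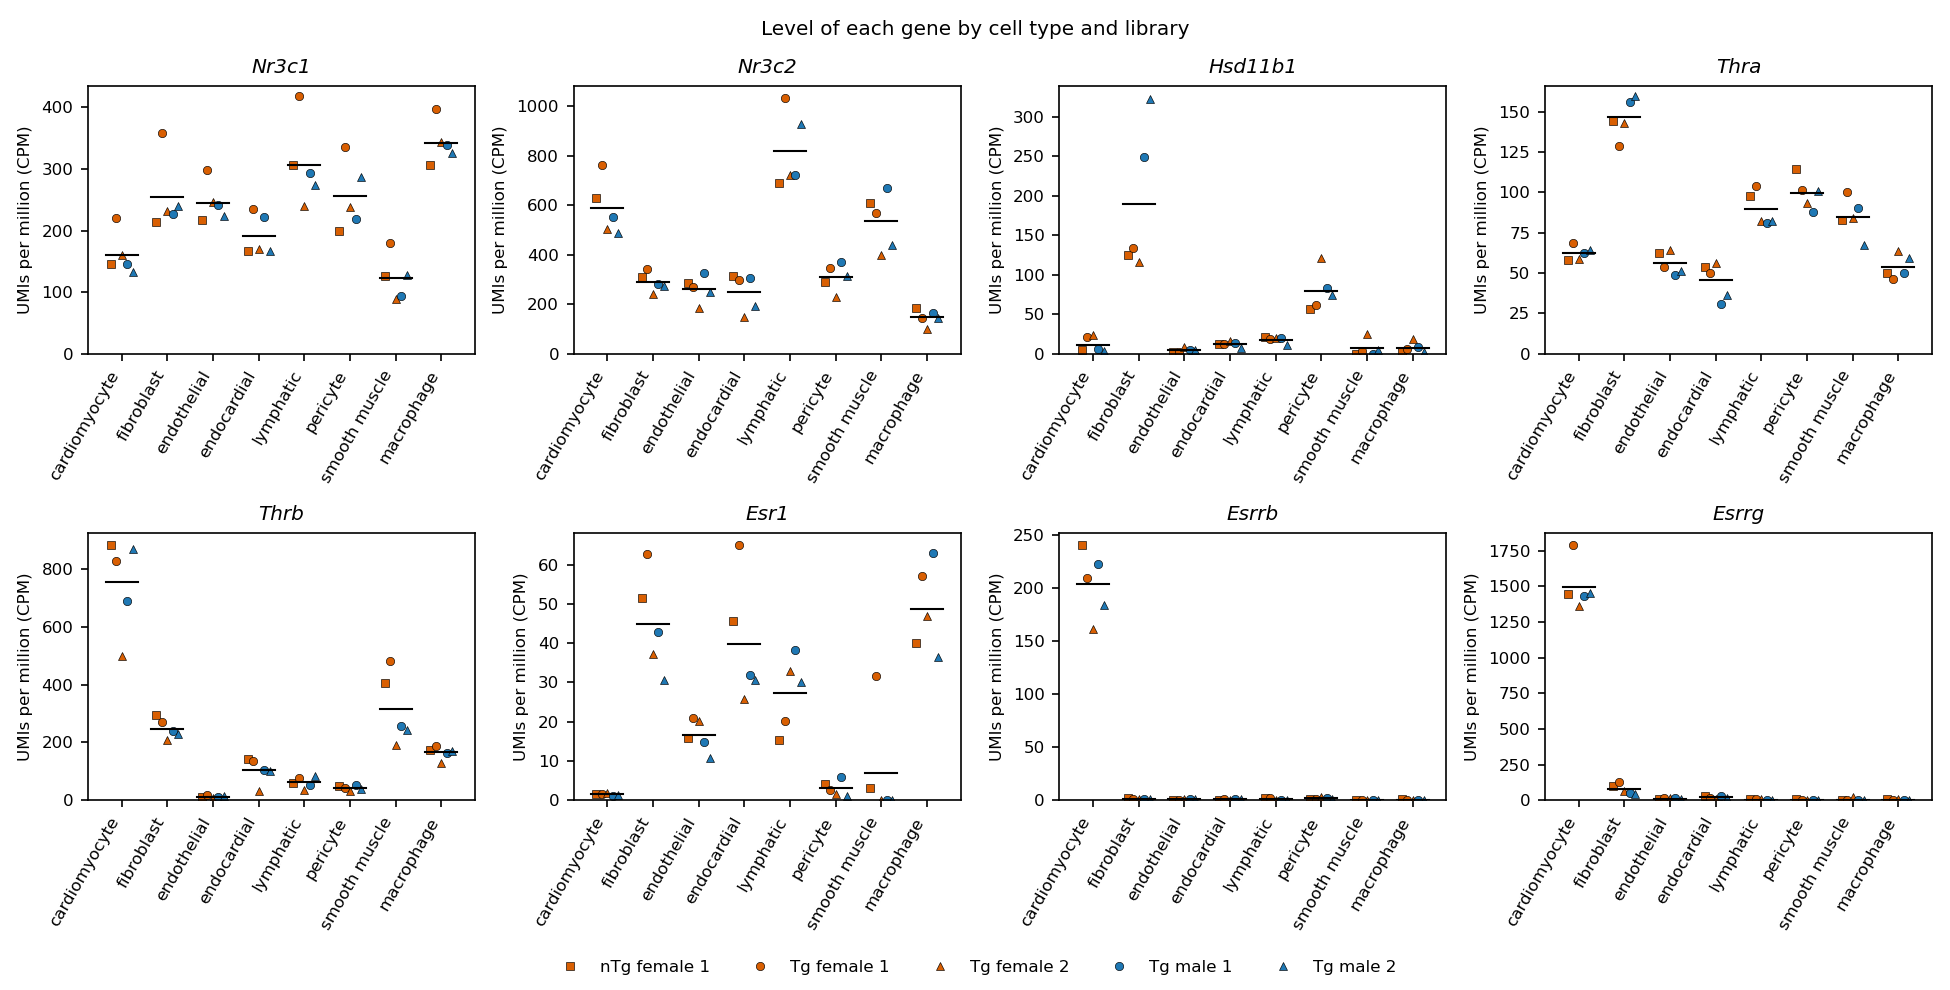
CPM (y axis, linear from 0, own scale for each gene) of each gene in 8 cell types (x axis), with 1 point per library (orange female, blue male; squares nTg) and a line at the mean of the 5 libraries. Esrrb and Esrrg stand high only in cardiomyocytes among these types, whereas Nr3c1 is present in all of them.

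The glucocorticoid receptor gene Nr3c1 was spread over all cell types within a narrow range. In macrophages the 5 libraries, in the order above, gave 306, 398, 344, 339 and 326 CPM (343 ± 34 (SD, n = 5)). Lymphatic endothelial cells followed with 307 ± 67.3 CPM, then pericytes with 256 ± 55.5, fibroblasts with 254 ± 59 and endothelial cells with 245 ± 32.1 CPM. Endocardial cells had 192 ± 33.9, cardiomyocytes 161 ± 34.6 and smooth muscle cells 123 ± 36.1 CPM. Macrophages were above lymphatic cells in 4 of 5 libraries, by 0.26 on the log2 scale (edgeR adjusted p = 0.0318), but each of 7 other settings lost this call, among them no TMM (0.17, adjusted p = 0.164) and called doublets kept (0.04, adjusted p = 0.729). It was also lost without Tg female 2, Tg male 1 or Tg male 2, at 0.17, 0.24 and 0.24. Neighbours from lymphatic cells to pericytes, fibroblasts and endothelial cells did not differ beyond their spread with TMM (adjusted p between 0.193 and 0.787). Without it, lymphatic cells exceeded pericytes by 0.27 (edgeR adjusted p = 0.0285). Endothelial cells exceeded endocardial cells by 0.38 (adjusted p = 0.00139). Endocardial cells had a higher Nr3c1 CPM than cardiomyocytes in 5 of 5 libraries, and without TMM they were higher by 0.27 (adjusted p = 0.0206). With TMM they were lower (-0.34, adjusted p = 0.00339), so the direction depends on the scaling. In T and NK cells, with only 134 UMIs of the gene in 125 nuclei, the level was 467 ± 70.8 CPM, the highest of the 11 named types.

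The mineralocorticoid receptor gene Nr3c2 had a different order. Lymphatic endothelial cells gave 689, 1036, 721, 721 and 930 CPM (819 ± 155). Cardiomyocytes gave 630, 764, 503, 554 and 488 CPM (588 ± 113), and smooth muscle cells 608, 567, 401, 668 and 437 CPM (536 ± 114). Lymphatic cells were above cardiomyocytes in every library, although the ranges of the types overlapped. That pair turned with the scaling: it was -0.20 with TMM (edgeR adjusted p = 0.182) and 0.49 without (adjusted p = 0.000595). Cardiomyocytes exceeded smooth muscle cells by 0.56 with TMM (adjusted p = 0.000223) but by 0.14 without (adjusted p = 0.362). Smooth muscle cells stood above pericytes by 0.95 (adjusted p = 5.6e-08), with no overlap between the ranges. Pericytes (309 ± 54.4 CPM), fibroblasts (290 ± 38.9), endothelial cells (262 ± 51.7) and endocardial cells (251 ± 75.3) did not differ beyond their spread, neighbour by neighbour (adjusted p between 0.301 and 0.585). Macrophages, the tested type with the highest Nr3c1 mean, had 148 ± 31 CPM of Nr3c2, lower than endocardial cells by 0.74 (adjusted p = 8.42e-06), and T and NK cells had 50.6 ± 28.6 CPM, from 16 UMIs. Hsd11b2, which shields the mineralocorticoid receptor from glucocorticoids in the kidney, had 112 UMIs over the 8 tested types, with its highest mean in lymphatic cells (2.54 ± 2.86 CPM, 5 UMIs).

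Hsd11b1 was concentrated in fibroblasts and pericytes. The fibroblast libraries had 125, 133, 116, 249 and 323 CPM (189 ± 92.2). The pericyte libraries had 56.1, 61.7, 121, 82.6 and 74.7 CPM (79.2 ± 25.6), below the fibroblasts in 4 of 5 libraries. The exception was Tg female 2, where pericytes were at 121 and fibroblasts at 116 CPM. The difference between these types was 1.27 on the log2 scale (edgeR adjusted p = 0.000906), and pericytes were above lymphatic cells by 2.21 (adjusted p = 0.00112), whose level was 17.7 ± 3.88 CPM. Endocardial cells, cardiomyocytes, macrophages, smooth muscle and endothelial cells had means of 4.47 to 12.2 CPM, and no neighbours among them differed beyond their spread (adjusted p between 0.0766 and 0.863). T and NK cells also carried the transcript: their libraries had 258, 369, 165, 165 and 281 CPM from 7 to 24 UMIs each. After each nucleus was thinned to 1000 UMIs, 16.1% of T and NK nuclei had at least 1 Hsd11b1 UMI (exact 95% interval 9.98% to 24.0%), against 14.3% of fibroblasts (13.6% to 14.9%) and 0.463% of endothelial cells (0.315% to 0.656%). Before thinning the shares were 32.0%, 26.8% and 0.824%, at median depths of 1839, 2601 and 1928 UMIs; 7, 200 and 343 nuclei were too shallow to thin. These intervals cover counting error only. H6pd, the enzyme's partner, had its highest mean in fibroblasts too, at 45.8 ± 12.4 CPM.

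Within fibroblasts, Hsd11b1 was uneven. It was highest in the cluster led by Kcnip1, Tll2 and Gfra1 (cluster 2, 4191 nuclei), at 343 ± 107 CPM, and in the cluster led by Fgf10, Inmt and C3 (cluster 3), at 163 ± 116 CPM. The cluster led by Cilp, Postn and other matrix genes (cluster 1) had 92.5 ± 30.7 CPM, and the cluster with Pi16 and Cd248 (cluster 0) had 56.2 ± 29.1 CPM. The cluster led by Dkk3, Wif1 and Prg4 (cluster 4, 362 nuclei) had 12.1 ± 16.1 CPM from 14 UMIs. Its name is the least certain: 4 of 8 fibroblast markers were raised, and the cluster led by the same genes stayed unnamed at resolution 0.5 and with called doublets kept. It held 886 of the 8843 Thrb, 158 of the 1639 Esr1 and 256 of the 2842 Esrrg UMIs counted in fibroblasts. These 8 genes took no part in the clustering, but clusters are defined from the same nuclei, so no test is given.

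The thyroid receptor genes split by cell type. Thra was highest in fibroblasts, at 145, 129, 143, 156 and 160 CPM (146 ± 12.1), and next in pericytes, at 114, 102, 93.2, 87.9 and 101 CPM. The ranges did not overlap, and the difference was 0.49 on the log2 scale (edgeR adjusted p = 0.000114). Lymphatic cells (89.5 ± 10.7), smooth muscle cells (85 ± 11.9) and cardiomyocytes (62.2 ± 4.42) came next, with endothelial cells, macrophages and endocardial cells between 45.6 and 56 CPM. Cardiomyocytes exceeded endothelial cells in Thra by 0.75 with TMM (adjusted p = 3.17e-08) but by 0.16 without (adjusted p = 0.177). No other neighbours differed beyond their spread with TMM. Without it, smooth muscle cells exceeded cardiomyocytes by 0.47 (adjusted p = 0.0035), and with it by 0.06 (adjusted p = 0.761).

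Among the tested types Thrb was highest in cardiomyocytes, which had 883, 829, 500, 692 and 870 CPM (755 ± 161), above every other type in every library. Smooth muscle cells had 406, 481, 193, 256 and 243 CPM (316 ± 122), lower by 1.67 on the log2 scale (edgeR adjusted p = 3.18e-13), and their range did not reach that of cardiomyocytes. Fibroblasts had 248 ± 34.1, macrophages 166 ± 21.8, endocardial cells 104 ± 43.7, lymphatic cells 61.5 ± 18.5, pericytes 43 ± 7.83 and endothelial cells 12.2 ± 4.79 CPM. Each of these steps passed the test with TMM except lymphatic cells against pericytes (0.41, adjusted p = 0.109). Without TMM that step was 0.51 (edgeR adjusted p = 0.0423), and smooth muscle against fibroblasts did not pass (0.33, adjusted p = 0.0523). Pericytes and endothelial cells, which share the capillary wall, were 1.81 apart (adjusted p = 2.1e-10). Within muscle, the small cluster led by Fgf12 and Cntn2 (cluster 7, 123 nuclei, 8 in its smallest library) had 323 ± 102 CPM of Thrb, against 691 ± 148 and 847 ± 159 CPM in the 2 large cardiomyocyte clusters. In each library its value was below both large clusters. The cluster led by Dkk3 and Wif1 (cluster 4), counted with fibroblasts, had 806, 602, 552, 899 and 681 CPM of Thrb (708 ± 143), in the range of the cardiomyocyte libraries and above them in Tg female 2 and Tg male 1. The other 4 fibroblast clusters had means of 176 to 328 CPM.

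**Figure D2:**
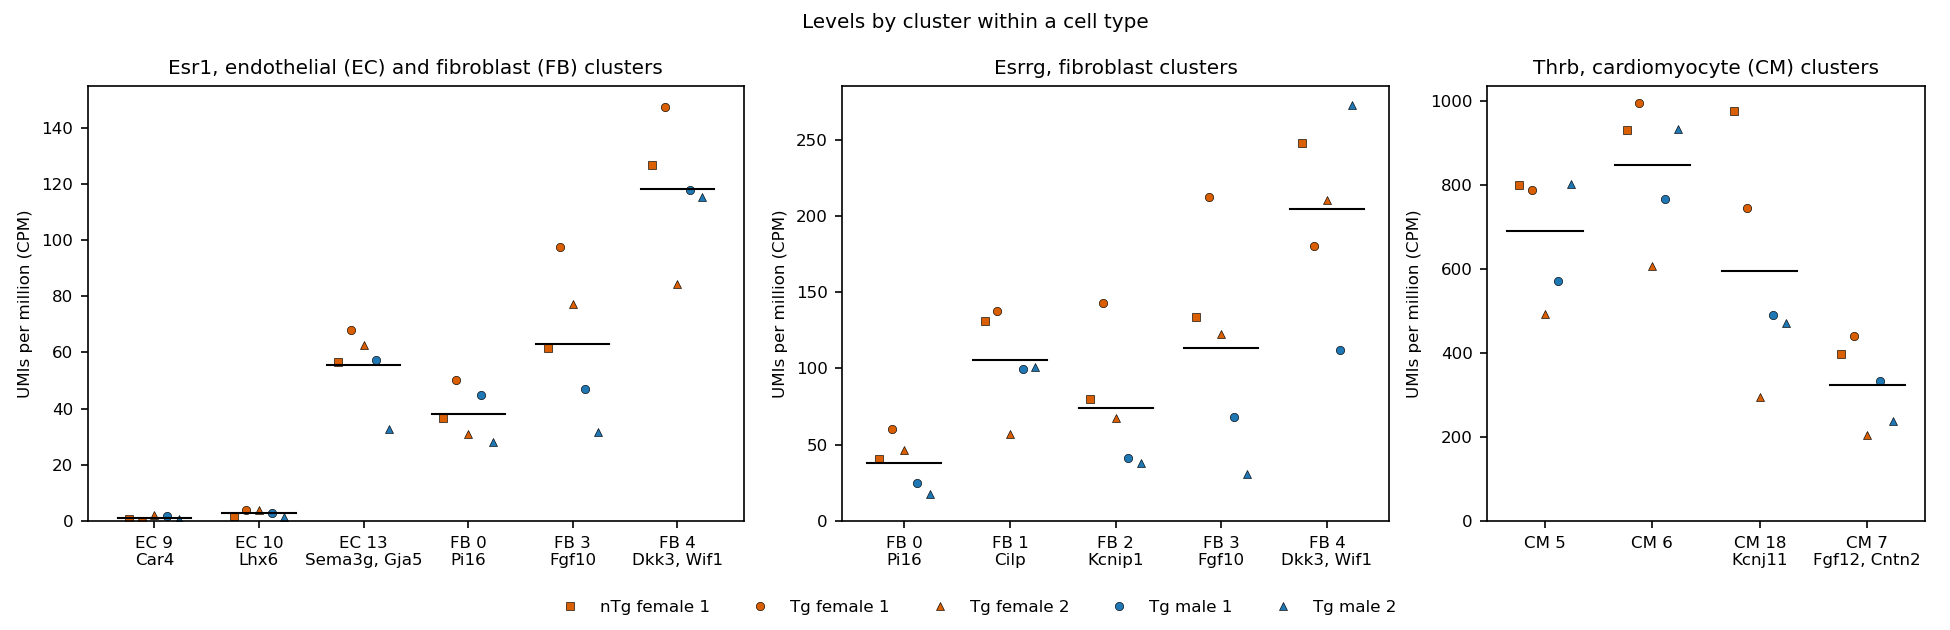
CPM (y axes, linear from 0) of Esr1, Esrrg and Thrb in single clusters of endothelial cells, fibroblasts and cardiomyocytes (x axes, with leading genes; 3 of the 5 fibroblast clusters are drawn for Esr1), 1 point per library and a line at the mean. Esr1 in endothelial cells sits in the cluster led by Sema3g and Gja5, and both Esr1 and Esrrg have their highest fibroblast mean in the cluster led by Dkk3 and Wif1.

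The deiodinase genes were close to absent from the counts: Dio1 had 2 UMIs, Dio3 had 3, and Dio2, which makes active hormone, had 178 over the 8 tested types, with its highest mean in fibroblasts (4.22 ± 2.65 CPM). The transporter gene Slc16a10 was highest in cardiomyocytes (320 ± 23.8 CPM) and macrophages (191 ± 36.2). Of the 17 genes tested from a list of 21, 9 were higher and 4 lower in cardiomyocytes than in fibroblasts, where 75.2% of all genes were called. The median was 0.53 over the list and -0.01 over all genes. Rxrg, the gene of a receptor that pairs with thyroid receptors, was higher by 6.14, Myh6, the fast myosin gene, by 5.06 and Slc16a10 by 4.73.

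Esr1, which encodes estrogen receptor alpha, was low in absolute counts and uneven between types. Macrophages had 40, 57.2, 46.8, 63 and 36.5 CPM (48.7 ± 11.2), fibroblasts 51.4, 62.7, 37.3, 42.7 and 30.7 CPM (45 ± 12.5) and endocardial cells 45.7, 64.9, 25.7, 31.9 and 30.7 CPM (39.8 ± 15.9). These 3 types overlapped, and neighbours among them did not differ beyond their spread (edgeR adjusted p = 0.423 and 0.742). Lymphatic cells had 27.4 ± 9.43 CPM and endothelial cells 16.5 ± 4.25 CPM. Cardiomyocytes had 1.66, 1.49, 1.93, 1.16 and 1.3 CPM, lower than fibroblasts in 5 of 5 libraries (log2 difference -4.26, adjusted p = 5.18e-19). After thinning, 0.185% of cardiomyocytes (exact 95% interval 0.0958% to 0.324%) and 4.09% of fibroblasts (3.75% to 4.46%) had an Esr1 UMI; unthinned, 1.01% and 9.06%, at median depths of 6997 and 2601 UMIs. The smooth muscle mean of 6.94 CPM rested on Tg female 1, at 31.6 CPM, with 3 of the libraries at 0; the call against pericytes (1.82, adjusted p = 0.0175) was higher in 1 of 5 libraries only.

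The endothelial signal of Esr1 came from 1 of 3 clusters. The cluster led by Sema3g, Gja5 and Sox17, genes known from arterial endothelium (cluster 13, 1901 nuclei), had 56.7, 68.1, 62.6, 57.3 and 32.7 CPM. The cluster with Car4 (cluster 9) had at most 2.2 CPM and the cluster with Lhx6 and Flt1 (cluster 10) at most 3.81 CPM, so the ranges were far apart; 226 of the 245 endothelial Esr1 UMIs were in cluster 13. In fibroblasts, Esr1 ran from 31.5 ± 15.4 CPM in cluster 1 to 118 ± 22.9 CPM in cluster 4, the cluster led by Dkk3 and Wif1 in which Hsd11b1 was lowest. Mesothelial cells had 82.3 ± 94.9 CPM, from 24 UMIs in 110 nuclei. Among other sex steroid genes, the second estrogen receptor gene Esr2 had 65 UMIs over the 8 tested types and the membrane estrogen receptor gene Gper1 was highest in pericytes (18.3 ± 8.44 CPM). Of the 8 genes tested from this list of 16, 3 were higher and 4 lower in cardiomyocytes than in fibroblasts. For this pair of types 75.2% of all genes were called. The list's median was -0.39 against -0.01 over all genes.

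Esrrg and Esrrb were cardiomyocyte genes by a wide margin. Cardiomyocytes had 1446, 1785, 1360, 1429 and 1449 CPM of Esrrg (1494 ± 167), and fibroblasts 98.2, 128, 65.6, 52.9 and 40.3 CPM (77.1 ± 35.9). The groups lay far apart, with a difference of 5.02 on the log2 scale (edgeR adjusted p = 2.47e-22). Fibroblasts were in turn above endocardial cells (19.3 ± 9.93 CPM) by 1.81 (adjusted p = 1.05e-06), and the 5 remaining tested types had 3.86 to 11.9 CPM. For Esrrb, cardiomyocytes had 240, 210, 162, 223 and 185 CPM (204 ± 31.1), and no other tested type exceeded a mean of 1.69 CPM (pericytes, 8 UMIs; difference 7.58, adjusted p = 1.76e-26). Smooth muscle cells had 0 Esrrb UMIs of 1637172, which allows up to 1.83 CPM over the 5 libraries together, so cardiomyocytes were at least 111-fold higher. Schwann cells had 19.9 ± 21.1 CPM of Esrrb from 12 UMIs and 105 ± 65.8 CPM of Esrrg from 63 UMIs.

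Thinned to 1000 UMIs, 73.3% of cardiomyocytes (exact 95% interval 72.2% to 74.4%) had an Esrrg UMI, 5.74% of fibroblasts (5.34% to 6.16%) and 0.188% of pericytes (0.0514% to 0.482%). For Esrrb the shares were 17.7% of cardiomyocytes (16.8% to 18.7%) and 0.128% of fibroblasts (0.0734% to 0.209%). Unthinned, 96.9%, 10.7% and 0.595% of these types had an Esrrg UMI, at median depths of 6997, 2601 and 2180.5 UMIs; 61, 200 and 61 nuclei were left out. There were 136 Esrrb UMIs per 1000 Esrrg UMIs in cardiomyocytes and 17.6 in fibroblasts. Per 1000 UMIs of 8 cardiomyocyte markers, Esrrg had 32.1 in cardiomyocytes, 90.2 in fibroblasts, 2.66 in pericytes and 25.3 in Schwann cells. In Schwann cells the ratio of Esrrb to Esrrg was 190 per 1000, and those markers stood at 4738 CPM there, against 892 CPM in fibroblasts. Smooth muscle cells had 6761 CPM of those markers, with 6 Esrrg and 0 Esrrb UMIs. The part of muscle RNA in the fibroblast and Schwann counts was not tested. Fibroblast clusters ranged from 38.1 ± 16.9 CPM of Esrrg (cluster 0, Pi16) to 205 ± 62.5 CPM (cluster 4, Dkk3 and Wif1).

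Genes of the estrogen-related receptor pathway were mostly higher in muscle. Of its 20 genes, 19 were higher in cardiomyocytes than in fibroblasts, where 75.2% of all genes were called in either direction. The other 1, Nrip1, a corepressor gene, was lower (-0.35, edgeR adjusted p = 0.0161). The list's median was 2.29 against -0.01 over all genes. Against endothelial cells, where 75.8% of all genes were called, 20 of 20 were higher. The list holds muscle and mitochondrial genes such as Mb, Ckmt2 and Cox6a2. These counts thus follow in part from its choice and do not test the receptors. Ppargc1a, which encodes PGC-1 alpha, was higher than in fibroblasts by 7.20, Perm1, a muscle partner of it, by 5.16, and Esrra, the third receptor gene of the family, by 3.11. Esrra was less restricted, with 96.7 ± 12.4 CPM in cardiomyocytes, 40.9 ± 4.96 in pericytes and 36.5 ± 5.75 in macrophages.

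Across the 40 sums of library and cell type, the gene most like a member was sought among 13861 genes by Pearson's r of log2(CPM + 1). The points share libraries and cell types, so r is a description. Thrb was most like Gm48321 (0.917), and Esrrg had Gm36388 second (0.905) after Ces1d (0.931); both are antisense genes that overlap the member on the other strand. Esrrb was most like Gm49130 (0.969), an antisense transcript on chromosome 14, not on its own chromosome 12. Hsd11b1 was most like Gm15511 (0.883), Oaf (0.847) and Gli2 (0.844), Esr1 like Rtn1 (0.875), Stxbp5 (0.866) and Elmo1 (0.866), and Nr3c2 like Reep1 (0.857). Thra was most like Faxc (0.838). Between members, r was 0.86 for Esrrb and Esrrg, 0.64 for Hsd11b1 and Thra, 0.63 for Nr3c1 and Esr1, and -0.28 for Nr3c1 and Nr3c2.

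The sexes were compared in each type with edgeR, with the genotype label as a covariate, so that the difference rests on the libraries labelled Tg. It therefore depends on the label of Tg female 1, which Ccna2 goes against. A fit without the covariate, where the genotype label entered only the count filter, called 0 members. Of 51 member-by-type tests, 1 passed an adjusted p of 0.05, where 0.247% of all gene-by-type tests did; with DESeq2 2 passed, and 4 had an unadjusted p under 0.05, as 7323 of 94844 tests over all genes did, so the members' share is near the background. The call was Hsd11b1 in fibroblasts. Its 3 female libraries (125, 133 and 116 CPM) were below both male libraries (249 and 323 CPM), a difference of -1.28 (SE 0.20, edgeR adjusted p = 0.0494). The share of fibroblasts with an Hsd11b1 UMI at 1000 UMIs was 10.6%, 10.2% and 9.36% in the female and 18.6% and 25.1% in the male libraries. The adjusted p lay close to the threshold: it was 0.0744 without TMM, 0.0533 with the Tg libraries alone, 0.0502 without the genotype covariate and 0.133 without Tg male 2, where the difference was -1.08. More members were called with DESeq2 and without Tg female 1, Tg female 2 or Tg male 1. In each of these fits more genes were called over all as well, as the last section gives. Fits without a Tg library leave an arm with 1 Tg library, assumed to vary like the others.

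The lower female level was present in most fibroblast clusters (plot of Hsd11b1 by cluster). In cluster 2 the female libraries had 256, 291 and 269 CPM and the male libraries 385 and 511. In cluster 3 they had 96.5, 93.2 and 55.8 against 241 and 326 CPM, and in cluster 0, 27.9, 38.2 and 43.0 against 73.8 and 98.2 CPM. In each of these clusters every female library was below both male libraries. In cluster 1 the sexes overlapped, with 43.2, 86.1 and 109 against 123 and 101 CPM, and cluster 4 had too few UMIs.

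In cardiomyocytes, at a level of few UMIs, Hsd11b1 took the opposite direction in the Tg libraries. The libraries had 3.85, 20.4, 24.0, 5.47 and 3.35 CPM, from 37, 273, 149, 61 and 36 UMIs. Both Tg female libraries were above the rest, and the library labelled nTg female 1 lay with the males. The female minus male difference was 2.27 (SE 0.28), which missed the threshold with edgeR (adjusted p = 0.113) and passed it with DESeq2 (2.28, adjusted p = 2.38e-05). The difference was 1.98 to 2.66 with any single Tg library left out, in fits that leave an arm with 1 Tg library. Without the genotype covariate it was 1.81 (adjusted p = 0.872). The large clusters 5 and 6 showed the same order of libraries by group: 19.2 and 24.4 CPM in Tg female 1 and 25.3 and 18.2 CPM in Tg female 2, against at most 7.19 CPM in the other 3 libraries. Fibroblast markers in cardiomyocytes moved in part with these libraries. Dcn had 28, 25.2, 87.4, 25.3 and 21 CPM, Gsn 59.6, 43.9, 112, 30.5 and 29.8 CPM and Col3a1 8.53, 10.1, 22.7, 4.66 and 3.63 CPM. In Tg female 2, 7 of the 8 markers were above both male libraries, and in Tg female 1 Col1a1, Col1a2, Col3a1, Lama2, Gsn and Abca8a were. The library labelled nTg female 1, low in Hsd11b1, was above both males in Col1a1, Col1a2, Col3a1, Lama2, Gsn and Dcn. The summed 8 markers, of which Lama2 made up the largest part, had 1078, 1273, 956, 808 and 951 CPM. Per 1000 UMIs of these markers, cardiomyocytes had 3.57, 16.0, 25.1, 6.76 and 3.52 Hsd11b1 UMIs. Fibroblasts had 7.83, 8.45, 10.9, 15.9 and 19.5. The part of fibroblast RNA in the Hsd11b1 difference was not tested. Whether the sex difference of Hsd11b1 differs between fibroblasts and cardiomyocytes was not tested.

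**Figure D3:**
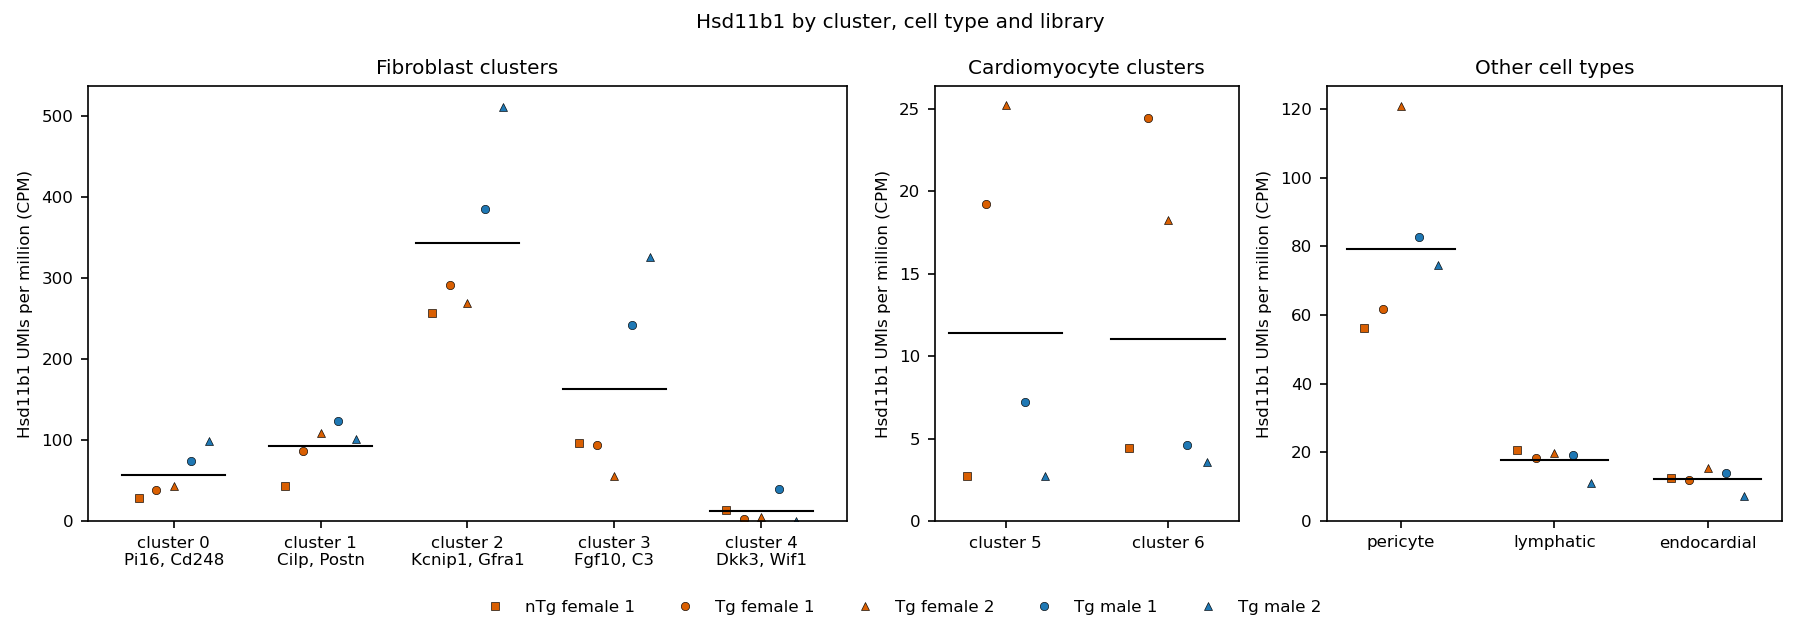
Hsd11b1 CPM (y axes, linear from 0, own scale in each panel) in 5 fibroblast clusters, the 2 large cardiomyocyte clusters and 3 other cell types (x axes), 1 point per library and a line at the mean. Male libraries (blue) lie above the female libraries in fibroblast clusters 0, 2 and 3, and the Tg female libraries lie above the rest in both cardiomyocyte clusters.

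The other members gave no sex difference past the threshold (plot of differences between female and male libraries). The following pair was singled out after the values were seen. Esrrg in fibroblasts was higher in all 3 female libraries (98.2, 128 and 65.6 against 52.9 and 40.3 CPM) by 0.98 (SE 0.31, edgeR adjusted p = 0.337). Esr1 in endothelial cells was higher in 3 of 3 female libraries by 0.63 (95% interval 0.10 to 1.16, adjusted p = 0.528). The 3 female libraries were on one side of both males in 9 of 51 tests, against 22.6% over all genes, and the Tg females on one side of the Tg males in 14, against 37.8% over all genes: neither share is above the background. Nr3c1 differences lay between 0.01 and 0.40 over the 8 types, and those of Nr3c2 between -0.39 and 0.24.

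**Figure D4:**
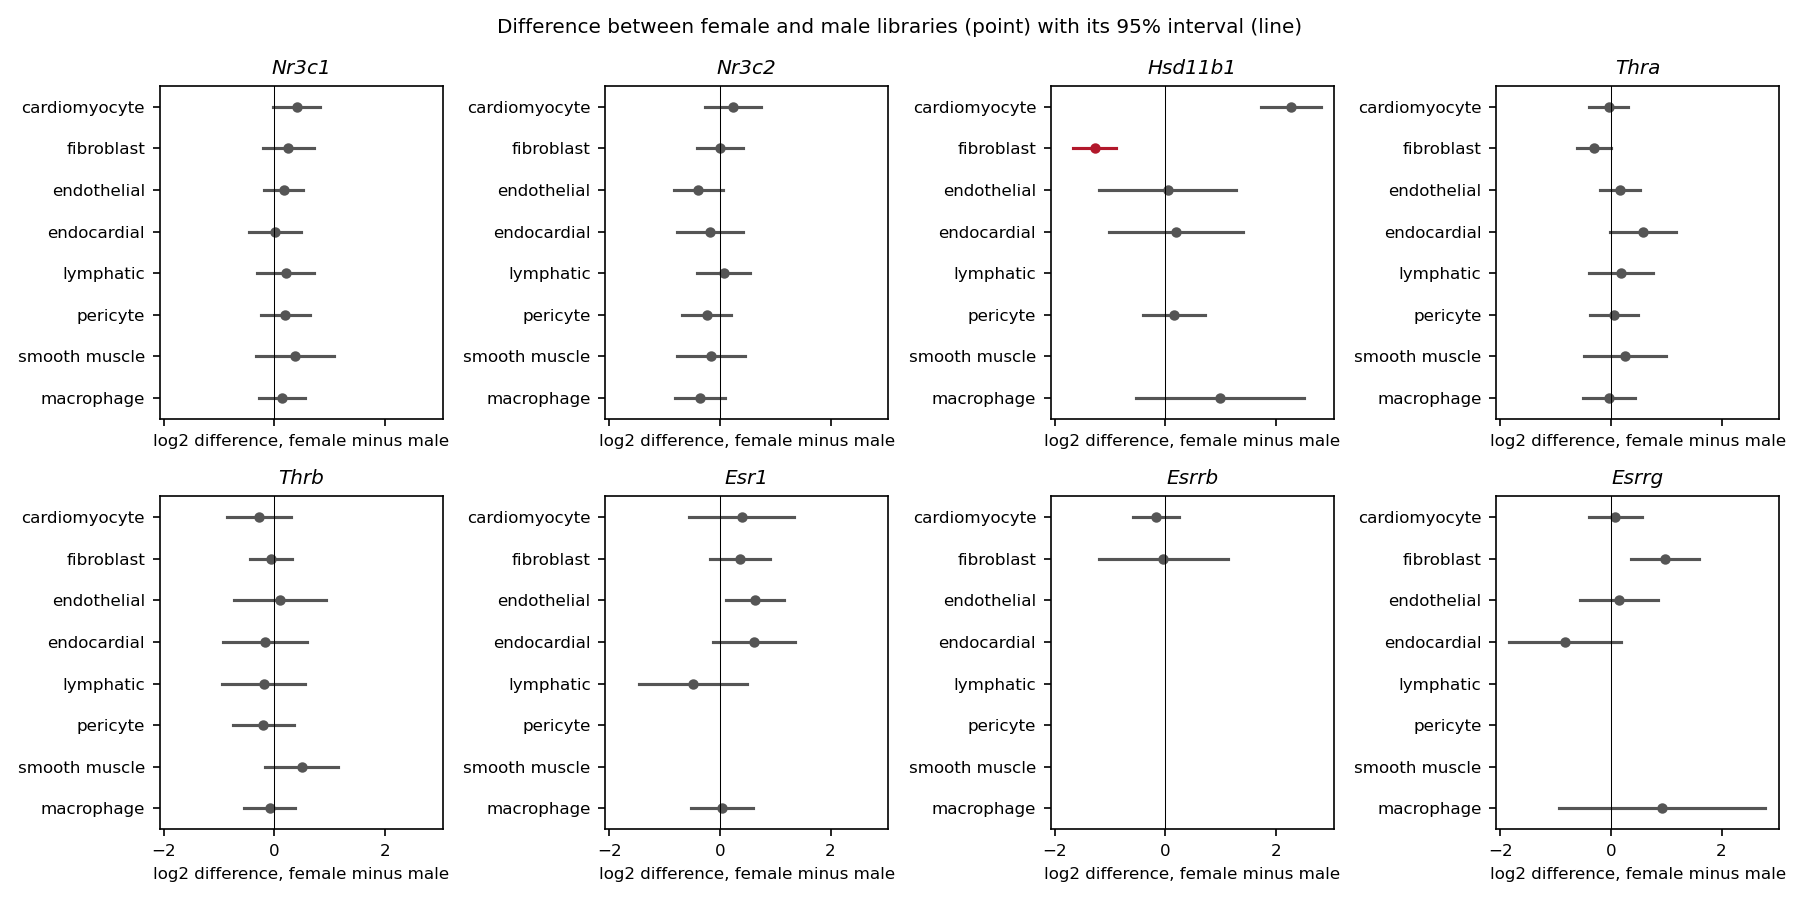
Log2 difference of female minus male libraries (x axis) with its 95% interval for each gene in the cell types where it passed the count filter (y axis); red marks an adjusted p under 0.05. Hsd11b1 in fibroblasts is the only red interval, and the Hsd11b1 interval in cardiomyocytes lies on the other side of 0.

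Among genes that the glucocorticoid receptor controls or that act with it, the calls were all lower in the 2 Tg female libraries than in the males, and in every one of them the library labelled nTg female 1 was above both Tg females. From a list of 20, the edgeR test called Fkbp5, a receptor co-chaperone and target, in 7 of 8 types, and Zbtb16 in endothelial, endocardial, lymphatic, pericyte and macrophage nuclei. Fkbp5 in endocardial cells had 367, 41.1, 131, 725 and 614 CPM (-3.20, adjusted p = 0.00137): both Tg female libraries were low. In fibroblasts it had 776, 260, 317, 764 and 813 CPM, with nTg female 1 between the males. The calls numbered 0 of 19 genes in cardiomyocytes and 1 of 20 in fibroblasts, where 0.0247% and 0.367% of all genes were called, and 4 of 19 in endothelial cells, where 0.166% were. They numbered 4 of 18 in endocardial cells (0.316% of all genes), 2 of 15 in lymphatic cells (0.155%), 2 of 16 in pericytes (0.181%), 1 of 13 in smooth muscle cells (0.822%) and 3 of 18 in macrophages (0.218%). The list's medians lay between -0.82 and -0.33, against 0.01 to 0.03 over all genes. The receptor gene Nr3c1 itself gave differences of 0.01 to 0.40 in the 8 types, none past the threshold (smallest adjusted p = 0.79). Of the thyroid and sex steroid lists 0 genes were called, and of the estrogen-related receptor list 1, Pdk4 in fibroblasts (-1.24, adjusted p = 0.0368).

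Single libraries stood apart over all cell types. Nr3c1 was highest in Tg female 1 in 8 of 8 types, which held for 0.114% of all genes, and Thrb was lowest in Tg female 2 in 8 of 8 types, which held for 0.400%. Nr3c2 was lowest in Tg female 2 in 6 of 8 types, and Hsd11b1 highest there in 6 of 8. The share of all genes with 6 of 8 was not counted. In smooth muscle cells this Hsd11b1 value rested on 5 UMIs. The summed 8 fibroblast markers in Tg female 2 had 1132 CPM in macrophages, against 239 to 372 CPM in the other libraries. In endothelial cells they had 985 against 271 to 372 CPM. They were not highest there in cardiomyocytes or pericytes. The part of fibroblast RNA in these Hsd11b1 levels was not tested. The share of UMIs from genes spanning over 100 kb was highest in Tg female 1 and lowest in Tg female 2 in each of the 8 types. It was, for example, 38.9%, 42.1%, 35.5%, 38.9% and 39.9% in cardiomyocytes and 35.8%, 39.3%, 29.9%, 36.7% and 36.3% in smooth muscle cells. Of the genes so defined, 6 are members, and Hsd11b1 and Thra are shorter. The part of this in the levels of Nr3c1 and Thrb was not tested.

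**Figure D5:**
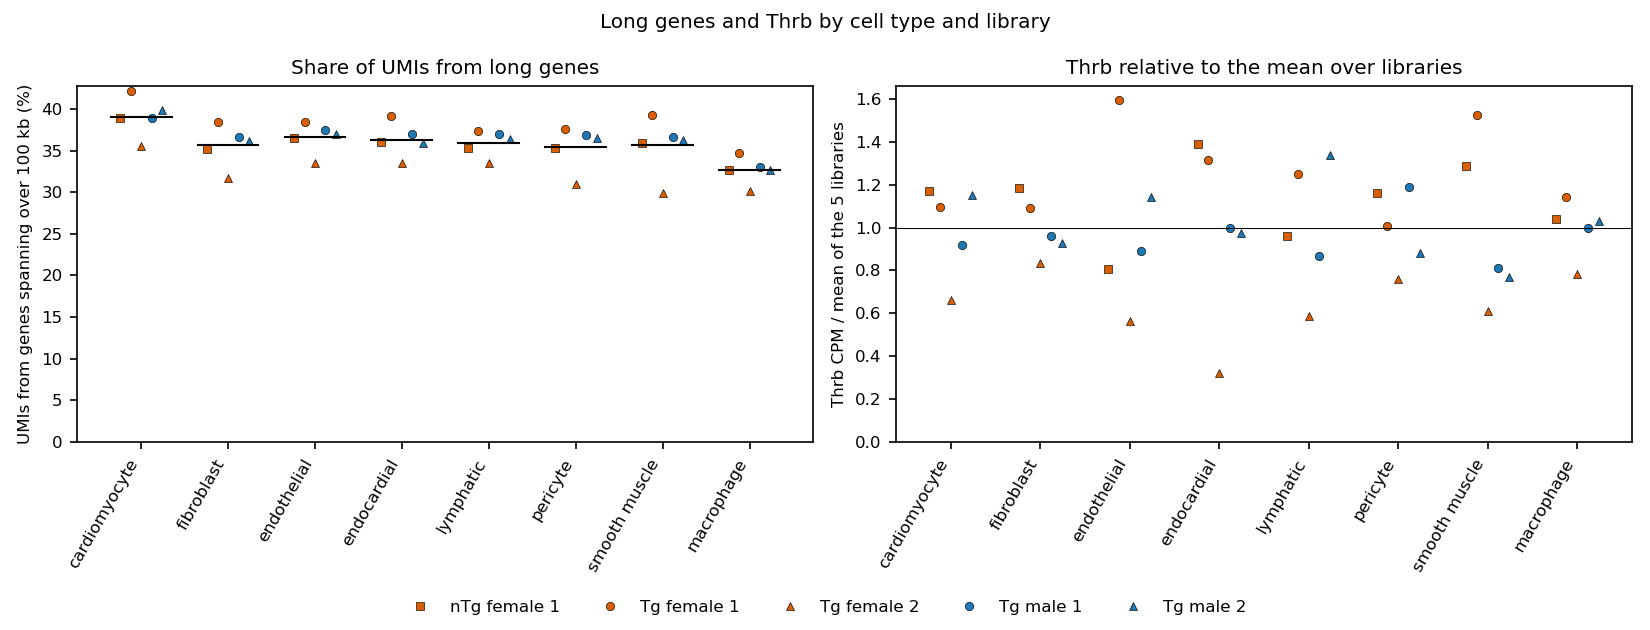
Left, percent of UMIs from genes spanning over 100 kb; right, Thrb CPM divided by the mean of the 5 libraries (y axes from 0), by cell type (x axes) with 1 point per library. Tg female 1 is highest and Tg female 2 lowest in the left panel in every type, and Tg female 2 is lowest in the right panel in every type.

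The library labelled nTg female 1 was the only one of its genotype, so it was compared without a test. Of the member-by-type levels, 1 was at least 2-fold from the mean of the Tg libraries and outside their range, where 5.16% of all gene-by-type levels were. This was Esrrg in macrophages, at 11.6 CPM from 16 UMIs against 3.29 ± 1.98 CPM (SD, n = 4) from 3 to 6 UMIs. Genotype and library cannot be told apart here, and Ccna2 goes against this label.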

How the data were processed

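Nuclei were counted with Cell Ranger 7.0.0, per the file headers, on mm10, per the submitters' processing notes; the deposited counts are raw UMI counts per gene and nucleus. Of the 8 matrices, 3 (nTg female 2, nTg male 1 and nTg male 2) held another library's values and did not match their own barcodes, and are not analysed here. Nuclei with at least 200 genes and under 5% mitochondrial UMIs were kept, and doublets were called with scrublet; in Tg female 2 its automatic threshold called 0%, so the median share of the others was removed. Nuclei were clustered with scanpy 1.11.5 (2000 variable genes, 30 components, 15 neighbours, resolution 1), leaving out 89 genes that are reported on, and clusters were named from fixed markers. Counts were summed per library and type and tested with edgeR 4.0.16 (quasi-likelihood, TMM, filterByExpr, Benjamini-Hochberg adjustment over all genes tested) in R 4.3.3; DESeq2 1.42.0 was an alternative. For sex the model held the genotype label. Alternatives were other scaling, filters, clustering, doublets kept, a replicate block and leaving out each library. In counts simulated for the sex comparison in cardiomyocytes (15868 genes, 200 changed), 54.6% of changes of log2 size 2 and 1% of size 1 were recovered. The text names the 8 members, the called pathway genes with the largest differences or highest levels, and the genes most like each member; Nrip1, Esrra, Slc16a10, the deiodinases and Esr2 were singled out after their values were seen. The members and lists were chosen with earlier results of these data known. Intervals are exact and cover counting error only. Some genes of the pathway and likeness lists are not reported here by name.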

Additional observations from a re-analysis of the deposited data

Results flagged for a closer look

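Female minus male values of Thra, the thyroid hormone receptor alpha gene, had opposite signs in different cell types, with none past the threshold. In fibroblasts every female library (145, 129 and 143 CPM) was below both male libraries (156 and 160 CPM), with a log2 difference of -0.31. In endothelial cells the females had 62.2, 53.6 and 64.2 CPM against 48.5 and 51.5 in the males (0.16), in endocardial cells 54, 50.3 and 56.5 against 30.9 and 36.5 (0.59), and in lymphatic endothelial cells 97.6, 104 and 82.3 against 81 and 82.3 (0.18). In lymphatic cells the lowest female and the highest male library were nearly equal (82.34 and 82.26 CPM). None of the 4 differences passed the edgeR threshold on its own (adjusted p from 0.627 to 0.969), and the difference between cell types was not tested. The 3 female libraries lay on one side of both males in 22.6% of gene-by-type tests over all genes. Among the members they did so in 9 of 51 tests.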

How the results depend on the processing

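The count of member pairs of cell types called, 152, fell to 91 when at least 10 UMIs were required in every sum, which tests fewer genes, and lay between 144 and 153 with a library left out. The 1 member called for sex became 0 without TMM, with the Tg libraries alone, without the genotype covariate or at resolution 0.5, 2 with DESeq2, 3 without a filter, and 1 to 5 with a library left out. The 234 genes called for sex became 473 with DESeq2, 1892 without a filter, 115 with at least 10 UMIs, 155 with the Tg libraries alone, 69 without the covariate, and 526 to 3230 with a library left out; the cause was not tested. With the replicate block 2 members and 903 genes were called. The deviations of same-numbered libraries had r between -0.022 and 0.0745 over genes. The labels do not say whether these libraries share more than a number, and this was not tested. Members apart by genotype label numbered 3 with doublets kept, 0 at a minimum of 50 CPM and 1 to 4 with a library left out. Nr3c2 in lymphatic cells minus cardiomyocytes turned from -0.20 to 0.49 without TMM, and was -0.31 with doublets kept (edgeR adjusted p = 0.0192). A fit that leaves out a library leaves an arm with 1 Tg sample, assumed to vary like the others. Low counts limit Hsd11b1 in cardiomyocytes, at 36 to 273 UMIs a library, and Esr1 in smooth muscle.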
